A study of Mus musculus with 31 samples.

Results

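The 10 dendritic cell marker genes *Cd83*, *Ccr7*, *Fscn1*, *Batf3*, *Zbtb46*, *Flt3*, *Xcr1*, *Clec9a*, *Itgae* and *Cd209a* were found by their symbols among the 39179 genes counted in tumors and cultures of a mouse melanoma, and each symbol belonged to a single identifier. Dendritic cells take up antigen in tissues, mature, move through the lymph to the draining nodes and present the antigen to T cells. Conventional dendritic cells grow under Flt3 ligand and divide into a type that needs Batf3, carries Xcr1 and Clec9a and cross-presents antigen to CD8+ T cells, and a type that mainly primes CD4+ T cells. Glucocorticoids (GCs) are hormones and drugs that bind the glucocorticoid receptor (GR), which is made in nearly all cells, and they are known to hold back the maturation of dendritic cells.

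The study asked how a topical GC acts on melanomas whose cancer cells carry or lack the GR. RNA of 20 whole tumors and 11 cultures was sequenced from the 3′ ends of transcripts. The melanoma line 20967 came from C57BL/6 mice that carried Tyr::CreERT2+/o and Nras+LSL-G12D, in which the tyrosinase promoter drives an inducible Cre in the melanocyte lineage and the Cre switches on a mutant *Nras* allele, so both genotypes of tumor share these alleles. GR KO cells came from the parental line by Cas9 editing of *Nr3c1*, the GR gene, through colonies grown from single cells, so that genotype and clone cannot be told apart.

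Tumors of each genotype grew in the skin of wild-type C57BL/6 mice, whose own cells kept the GR in every group, and the labels and methods give neither the age of the mice nor the day on which these tumors were taken. The 5 parental and 5 GR KO tumors of the GC groups received clobetasol propionate, a potent GC, as 0.05% ointment 3 times weekly, and 5 tumors of each genotype received control treatment. As background without host cells, parental and GR KO cells were cultured with DMSO (3 cultures each) or clobetasol propionate (2 parental and 3 GR KO cultures), at a dose that the treatment label gives as 10 µM and the library names as 1 µM. All groups lack sorting, so a tumor's RNA comes from melanoma cells, leukocytes, vessels and skin together.

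Reads assigned to genes numbered 15528066 to 26386770 in tumors and 14441166 to 22463188 in cultures. Levels are in edgeR's CPM unit, counts scaled to a common library total with TMM factors. The floor is 3 counts. By library total alone, before TMM factors, this corresponds to between 0.114 and 0.193 CPM in tumors and between 0.134 and 0.208 CPM in cultures. With TMM factors the floor shifts by library, and 1 count in GR KO control tumor 1 is 0.0733 CPM. Each experiment was fitted over all of its genes with the quasi-likelihood test of edgeR, and a gene is called where its p, adjusted over all genes tested by the Benjamini-Hochberg method, is under 0.05 and its linear fold change is at least 1.5. SE is the standard error of a log2 value. With control treatment, the log2 difference of *Nr3c1* between GR KO and parental tumors was -1.02 (SE 0.24, edgeR adjusted p = 0.0313), a call that held in 2 of 10 fits that left out a tumor, and under GC it was -0.02 (SE 0.24, edgeR adjusted p = 0.981).

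The GR KO control tumors were the least alike, with a mean correlation to the rest of their group between 0.931 and 0.948, against 0.9502 to 0.972 in the other tumor groups. GR KO control tumors 1 and 4 stood apart most, at 0.931 and 0.934. At an equal depth of 15528066 reads, 13404 genes were detected in GR KO control tumor 1 and 16775 in GR KO control tumor 4, against 14271 to 15142 in the rest of that group.

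Of the 10 marker genes, 9 had at least 0.5 CPM in at least 3 tumors and were tested, and *Cd209a*, which reached this level in 2 tumors, was not. In GC-treated parental tumors, edgeR called 0 of the 9 tested, beside 0.779% of all genes called and 0.345% called lower. Of these genes, 4 of the 9 had an unadjusted p under 0.05, beside 2249 of all 15919 genes tested. DESeq2 called 2, *Cd83* and *Ccr7*, and its count over all genes is given with the alternatives at the end. In GC-treated GR KO tumors, *Cd83*, *Batf3* and *Zbtb46* were called lower, 3 of the 9 tested, beside 6.42% of all genes called and 3.71% called lower. Under several alternatives *Zbtb46* was not called. Without GR KO control tumor 4 the count was 3, beside 2411 genes called in place of 1022, and without GR KO control tumor 1 it was 2, beside 429. The median log2 fold change of the 9 genes was -1.02 in parental and -1.06 in GR KO tumors, beside medians of 0.00 and 0.05 over all genes. Fold changes were below 0 for 9 of 9 genes in parental and 8 of 9 in GR KO tumors, beside 49.7% and 47.2% of all genes. *Clec9a* passed the filter through 3 control tumors and no GC-treated tumor, which favors a value below 0 for this gene. Without it the counts are 8 of 8 and 7 of 8 and the medians -0.93 and -1.02. In bulk tumors, fewer dendritic cells and less RNA of these genes in each cell cannot be told apart.

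**Figure D1:**
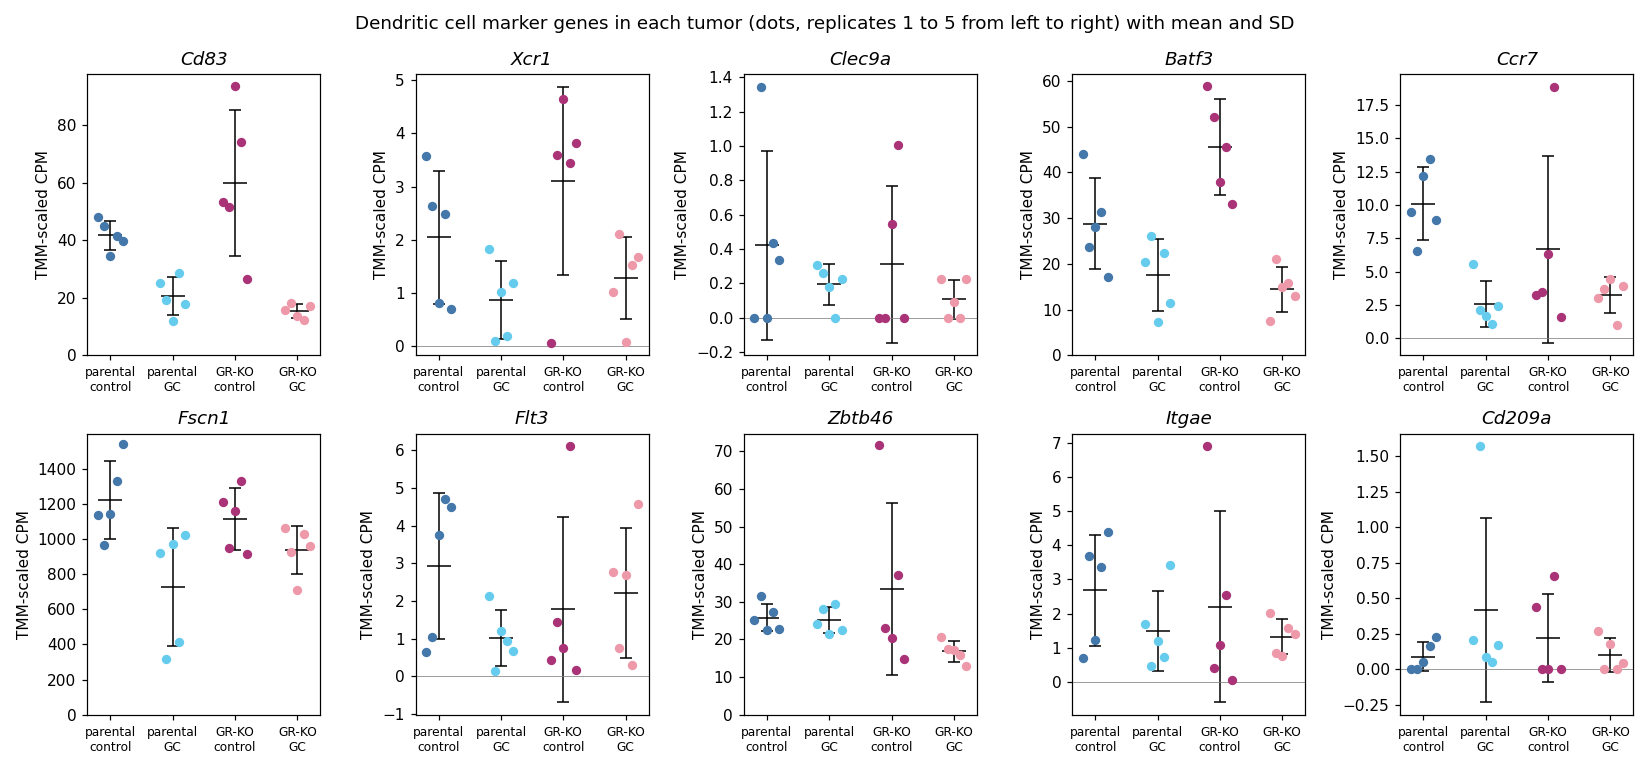
Level of each dendritic cell marker gene in every tumor, as TMM-scaled CPM on the vertical axis of each panel, with the 4 tumor groups side by side, points for tumors and bars for the mean and SD (n = 5). The GC-treated tumors lie below the controls of their genotype for *Cd83* in both genotypes, for *Ccr7* in parental and for *Batf3* in GR KO tumors.

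In cultures, *Cd83*, *Xcr1*, *Flt3* and *Cd209a* had 0 counts in all 11, which allows up to 0.208 CPM, before TMM factors, in the shallowest. *Clec9a* and *Ccr7* had 3 counts in 1 culture each and 0 in 10, *Itgae* had 0 in 9 cultures and at most 7 counts, and *Batf3* had between 0 and 7 counts. For these 8 genes the cultured melanoma cells thus had few reads or none, and from which cells of a tumor their reads came was not tested. *Fscn1* and *Zbtb46* behaved otherwise: *Fscn1* had between 4450 and 11997 counts per culture (478 ± 95.8 CPM, SD, n = 11) and *Zbtb46* between 117 and 219 counts (9.46 ± 2.30 CPM, SD, n = 11). Cultured melanoma cells therefore carry transcripts of these 2 genes, and in tumors their reads cannot be assigned to dendritic cells. Outside dendritic cells, *Ccr7* is also known from T and B cells, *Itgae* from CD8+ T cells, *Cd83* from B cells and macrophages, *Batf3* from T cells and *Zbtb46* and *Fscn1* from endothelium.

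*Cd83* (gene ENSMUSG00000015396, chr13:43784775-43803132 of GRCm38) encodes a membrane protein of mature dendritic cells that holds MHC class II at the cell surface. In parental tumors its levels were 48.1, 44.8, 34.6, 41.4 and 39.7 CPM with control treatment and 25.2, 19.4, 11.8, 28.5 and 18.0 CPM with GC. In GR KO tumors they were 53.4, 51.5, 93.7, 74.3 and 26.7 CPM with control treatment and 15.9, 18.3, 13.7, 12.4 and 17.3 CPM with GC. Every GC-treated tumor lay below every control tumor of its genotype, and the GR KO controls were spread the widest. The means in parental tumors were 41.7 ± 5.14 CPM and 20.6 ± 6.52 CPM (SD, n = 5 each), and the log2 fold change was -1.02 (SE 0.27, edgeR adjusted p = 0.0703), which misses the threshold. With DESeq2 the adjusted p in parental tumors was 0.0151, and with edgeR it was 0.0476 where the 2 parental groups were fitted alone and 0.0273 with the genes detected per tumor as covariate. Over all edgeR fits that left out a tumor it ranged from 0.0683 to 0.171. *Cd83* means of GR KO tumors were 59.9 ± 25.3 and, with GC, 15.5 ± 2.47 CPM (SD, n = 5 each), with a log2 fold change of -1.95 (SE 0.27, edgeR adjusted p = 0.000403). *Cd83* was called lower in GR KO tumors in 10 of 10 fits that left out a tumor, with log2 fold changes from -2.14 to -1.73.

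*Ccr7* (ENSMUSG00000037944, chr11:99144196-99155077) encodes the receptor with which mature dendritic cells follow the chemokines Ccl19 and Ccl21 into lymph vessels and nodes. Levels of *Ccr7* in parental tumors were 9.49, 6.57, 12.2, 13.4 and 8.83 CPM with control treatment and 5.56, 2.15, 1.68, 1.03 and 2.39 CPM with GC. Levels of *Ccr7* in GR KO tumors were 3.225, 3.46, 6.29, 18.8 and 1.60 CPM with control treatment and 3.03, 3.67, 4.45, 1.01 and 3.95 CPM with GC. The parental groups did not overlap, while the GR KO groups did, and GR KO control tumor 4 was far above the others of its group. In parental tumors, whose means were 10.1 ± 2.73 CPM and 2.56 ± 1.75 CPM (SD, n = 5 each), the log2 fold change of *Ccr7* was -1.98 (SE 0.56, edgeR adjusted p = 0.105). Without GC-treated parental tumor 1, the highest of its group, it was -2.48 and passed the threshold (adjusted p = 0.0447, edgeR), and DESeq2 gave an adjusted p of 0.0158. The log2 fold change of *Ccr7* in GR KO tumors was -1.06 (SE 0.55, edgeR adjusted p = 0.235), and without GR KO control tumor 4 it was -0.17 (adjusted p = 0.847, edgeR).

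*Fscn1* (ENSMUSG00000029581, chr5:142960343-142973185) encodes fascin, which bundles actin in the extensions of mature dendritic cells and in many cancer cells. It was the most abundant of the 10 genes in tumors and gave 91.1% of their summed level. Parental tumors had *Fscn1* levels of 1134, 963, 1141, 1332 and 1538 CPM with control treatment and 919, 316, 969, 413 and 1020.0 CPM with GC. GC-treated parental tumors 2 and 4 had much lower *Fscn1* than the other 3, and the groups overlapped. *Fscn1* in GR KO tumors lay between 915 and 1330.5 CPM with control treatment and between 712 and 1060 CPM with GC. The log2 fold changes of *Fscn1* were -0.75 (SE 0.26, edgeR adjusted p = 0.192) in parental and -0.25 (SE 0.26, edgeR adjusted p = 0.589) in GR KO tumors. In cultures *Fscn1* had log2 fold changes with GC of 0.11 (SE 0.26, edgeR adjusted p = 0.882) in parental and -0.19 (SE 0.23, edgeR adjusted p = 0.976) in GR KO cells.

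*Batf3* (ENSMUSG00000026630, chr1:191097847-191108945) encodes a transcription factor without which the cross-presenting dendritic cells do not form. Parental control and GC-treated tumors had *Batf3* at 44.0, 23.7, 28.0, 31.4 and 17.0 CPM with control treatment and 20.5, 26.2, 7.38, 22.4 and 11.5 CPM with GC. GR KO tumors had *Batf3* at 58.9, 52.2, 37.9, 45.6 and 33.2 CPM with control treatment and 7.40, 21.1, 14.8, 15.8 and 13.1 CPM with GC. The parental groups overlapped, and every GC-treated GR KO tumor lay below every GR KO control. In parental tumors, with means of 28.8 ± 10.0 CPM and 17.6 ± 7.86 CPM (SD, n = 5 each), the log2 fold change of *Batf3* was -0.71 (SE 0.32, edgeR adjusted p = 0.309). *Batf3* means of GR KO tumors were 45.6 ± 10.4 and, with GC, 14.4 ± 4.94 CPM (SD, n = 5 each), with a log2 fold change of -1.66 (SE 0.32, edgeR adjusted p = 0.00533). This call for *Batf3* held in 10 of 10 fits that left out a tumor, with log2 fold changes from -1.83 to -1.49.

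*Zbtb46* (ENSMUSG00000027583, chr2:181387762-181459426) encodes a transcription factor that marks conventional dendritic cells among leukocytes and is also made by endothelium. Across parental tumors *Zbtb46* levels were 25.3, 31.4, 22.5, 27.2 and 22.8 CPM with control treatment and 24.1, 28.2, 21.4, 29.4 and 22.6 CPM with GC. Across GR KO tumors *Zbtb46* levels were 71.6, 23.2, 20.4, 37.0 and 14.93 CPM with control treatment and 20.6, 17.5, 17.3, 15.8 and 12.9 CPM with GC. Parental tumors overlapped widely with and without GC, and in GR KO tumors control tumor 1 was far above the rest. The log2 fold change of *Zbtb46* was -0.04 (SE 0.29, edgeR adjusted p = 0.973) in parental tumors. In GR KO tumors it was -0.99 (SE 0.30, edgeR adjusted p = 0.0470), and the call held in 3 of 10 fits that left out a tumor. It also ended, with adjusted p from edgeR, without a filter (0.0513), with the replicate block (0.0589), with the 2 groups fitted alone (0.133) and with the genes detected per tumor as covariate (0.237). Without GR KO control tumor 1 the log2 fold change of *Zbtb46* was -0.51 (adjusted p = 0.216, edgeR), and without control tumor 2 it was -1.10 (adjusted p = 0.0532, edgeR). Without GC-treated GR KO tumors 1, 2, 3, 4 and 5 it was -1.08, -1.01, -0.99, -0.97 and -0.91, with adjusted p of 0.0668, 0.0620, 0.104, 0.0650 and 0.125 from edgeR. In cultures *Zbtb46* had log2 fold changes with GC of -0.14 (SE 0.32, edgeR adjusted p = 0.882) in parental and 0.14 (SE 0.28, edgeR adjusted p = 0.976) in GR KO cells.

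*Flt3* (ENSMUSG00000042817, chr5:147330741-147400489) encodes the receptor through which Flt3 ligand sustains dendritic cells and their precursors. *Flt3* levels in parental tumors were 0.637, 1.06, 3.76, 4.71 and 4.51 CPM with control treatment and 2.14, 0.157, 1.19, 0.936 and 0.684 CPM with GC. *Flt3* levels in GR KO tumors were 0.440, 1.43, 0.752, 6.10 and 0.184 CPM with control treatment and 2.76, 0.755, 2.70, 0.318 and 4.59 CPM with GC. Both pairs of groups overlapped, and GR KO control tumor 4 again had the highest level of its group. The log2 fold changes of *Flt3* were -1.51 (SE 0.86, edgeR adjusted p = 0.437) in parental and 0.30 (SE 0.84, edgeR adjusted p = 0.862) in GR KO tumors, and without GR KO control tumor 4 the second was 1.67 (adjusted p = 0.181, edgeR).

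*Xcr1* (ENSMUSG00000060509, chr9:123852315-123862029) encodes the receptor for Xcl1, a chemokine that activated CD8+ T and NK cells release, and it is the most selective mark of cross-presenting dendritic cells among these genes. Among parental tumors *Xcr1* was at 3.57, 2.64, 0.823, 2.49 and 0.708 CPM with control treatment and 1.84, 0.105, 1.02, 0.197 and 1.20 CPM with GC. Among GR KO tumors *Xcr1* was at 0.0733, 3.58, 4.65, 3.44 and 3.81 CPM with control treatment and 1.03, 2.10, 0.0899, 1.54 and 1.68 CPM with GC. The groups overlapped in both genotypes, GR KO control tumor 1 was far below its group, and 3 of the 20 tumors were at the floor. The log2 fold changes of *Xcr1* were -1.22 (SE 0.84, edgeR adjusted p = 0.537) in parental and -1.27 (SE 0.84, edgeR adjusted p = 0.361) in GR KO tumors. Without GR KO control tumor 1 the second was -1.59 (adjusted p = 0.228, edgeR).

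*Clec9a* (ENSMUSG00000046080, chr6:129408862-129424763) encodes a lectin with which cross-presenting dendritic cells bind the actin of dead cells. It was at 0 counts in 8 of 20 tumors and at or under the floor in 9, its highest level was 1.34 CPM, in parental control tumor 2, and it passed the filter through exactly 3 tumors, all of them controls. The exons of *Clec9a* overlap *Clec1b* on the same strand in the GENCODE M21 annotation, so reads in the shared stretch cannot be assigned to either gene. The log2 fold changes of *Clec9a* were -1.10 (SE 1.48, edgeR adjusted p = 0.795) and -1.48 (SE 1.51, edgeR adjusted p = 0.580) in parental and GR KO tumors. The second was -1.78 without GR KO control tumor 1 (adjusted p = 0.5285, edgeR), and without GR KO control tumor 4 the gene missed the filter.

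*Itgae* (ENSMUSG00000005947, chr11:73090583-73147446) encodes CD103, an integrin chain that pairs with Itgb7 to bind E-cadherin on cross-presenting dendritic cells and on CD8+ T cells of the skin. Its levels lay between 0.701 and 4.40 CPM in parental control tumors and between 0.471 and 3.42 CPM with GC, and between 0.0615 and 6.89 CPM in GR KO control tumors and between 0.764 and 2.01 CPM with GC. All 4 groups of *Itgae* values overlapped, and GR KO control tumor 1 held the highest value. The log2 fold changes were -0.84 (SE 0.80, edgeR adjusted p = 0.680) in parental and -0.72 (SE 0.80, edgeR adjusted p = 0.611) in GR KO tumors, and without GR KO control tumor 1 the second was 0.34 (adjusted p = 0.839, edgeR).

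*Cd209a* (ENSMUSG00000031494, chr8:3743397-3748984) encodes a lectin known from dendritic cells that derive from monocytes and from the type that primes CD4+ T cells. It was at 0 counts in 7 tumors and at or under the floor in 13 of 20, and its highest level was 1.57 CPM, in GC-treated parental tumor 2. For this gene the difference in mean log2(CPM + 1) between GC and control was 0.29 in parental tumors (two-sided exact permutation test, p = 0.238) and -0.12 in GR KO tumors (two-sided exact permutation test, p = 0.563). Between GR KO and parental tumors it was 0.13 with control treatment (two-sided exact permutation test, p = 0.484) and -0.28 with GC (two-sided exact permutation test, p = 0.310). Leaving out a tumor moved these genotype differences between 0.015 and 0.20 with control treatment and between -0.37 and -0.043 with GC. With a tumor left out the GC differences of *Cd209a* ranged from 0.056 to 0.38 in parental and from -0.18 to -0.0025 in GR KO tumors, nearest 0 without GC-treated parental tumor 2 and without GR KO control tumor 4. At this depth no difference was detectable for *Cd209a*.

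By the mean level over the 20 tumors, *Fscn1* (999.7 CPM) stood far above *Cd83* (34.4 CPM), *Batf3* (26.6 CPM) and *Zbtb46* (25.3 CPM), whose order was this in both control groups, while in both GC groups *Zbtb46* was above *Cd83* and *Batf3*. *Ccr7* followed with 5.64 CPM, then, in an order that differed between groups, *Flt3* (1.99 CPM), *Itgae* (1.93 CPM) and *Xcr1* (1.83 CPM), and last, likewise, *Clec9a* (0.259 CPM) and *Cd209a* (0.205 CPM). Reads of 3′ libraries arise near transcript ends, so CPM here is not divided by gene length. *Xcr1* and *Clec9a*, which mark cross-presenting cells, were thus among the 5 least abundant genes.

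Non-overlap of GC-treated below control tumors held for 2 marker genes in parental tumors, *Cd83* and *Ccr7*, beside 1.71% of all genes tested. In GR KO tumors it held for *Cd83* and *Batf3*, 2 genes beside 2.41% of all genes. The GC comparisons of the 2 genotypes use different tumors throughout. Whether the GC effect differed between genotypes was tested directly, and edgeR called 0 of 9 marker genes, beside 0.195% of all genes. Of the 9, 3 had an unadjusted p under 0.05, beside 3192 of all 15919 genes, and DESeq2 called 0. Without GR KO control tumor 4 the count of marker genes stayed at 0 while all genes called went from 31 to 1284, and without GR KO control tumor 1 it was 0 beside 6. The difference in log2 fold change, parental minus GR KO, was 0.93 (SE 0.37, edgeR adjusted p = 0.174) for *Cd83*. For *Batf3* the difference was 0.94 (SE 0.45, edgeR adjusted p = 0.237), and for *Zbtb46* it was 0.95 (SE 0.42, edgeR adjusted p = 0.208), or 0.47 without GR KO control tumor 1 (adjusted p = 0.436, edgeR). For these 3 genes the fold change was nearer 0 in parental tumors, without passing the test of the difference. *Ccr7* had a difference in the other direction, -0.92 (SE 0.77, edgeR adjusted p = 0.513), and without GR KO control tumor 4 it was -1.80 (adjusted p = 0.0910, edgeR). The difference for *Flt3* was -1.82 (SE 1.20, edgeR adjusted p = 0.398), and without the same tumor it was -3.17 (adjusted p = 0.0811, edgeR). *Xcr1*, *Clec9a*, *Fscn1* and *Itgae* had differences between -0.50 and 0.37. The difference for *Itgae*, with GR KO control tumor 1 left out, went from -0.11 to -1.18 (adjusted p = 0.565, edgeR), for *Xcr1* from 0.05 to 0.36 (adjusted p = 0.881, edgeR) and for *Clec9a* from 0.37 to 0.68 (adjusted p = 0.888, edgeR).

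**Figure D2:**
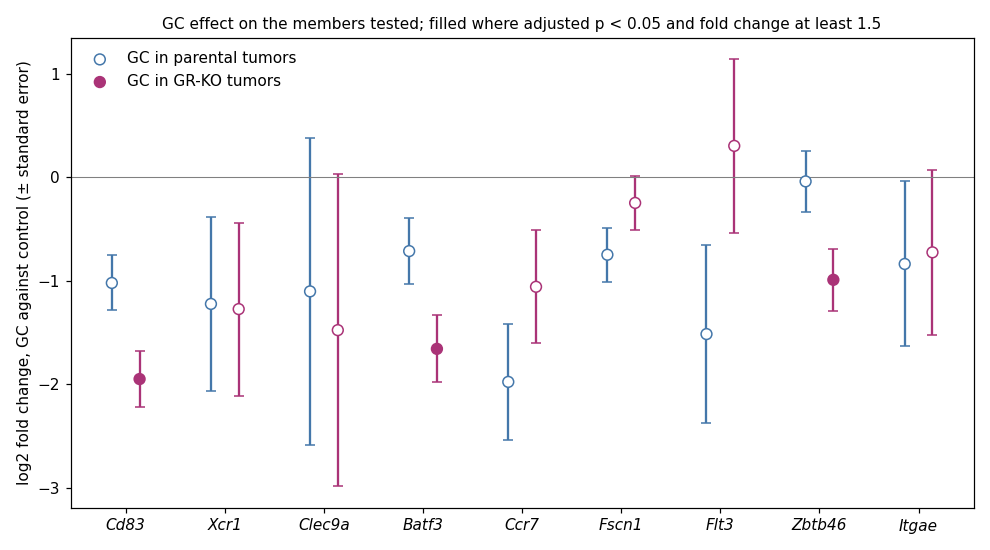
Log2 fold change of each tested dendritic cell marker gene with GC in parental and in GR KO tumors, on the vertical axis, with bars for the standard error from the edgeR fit. Estimates for *Cd83* and *Batf3* lie below 0 in both genotypes, and the bars are widest for *Clec9a*, *Flt3*, *Xcr1* and *Itgae*.

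Between GR KO and parental control tumors, edgeR called 0 of 9 marker genes, beside 2.25% of all genes, and DESeq2 called 0. Of the 9, 1 had an unadjusted p under 0.05, beside 3180 of all 15919 genes. The edgeR count was also 0 without GR KO control tumor 4, beside 1762 of all genes called in place of 358, and without GR KO control tumor 1, beside 70. *Batf3* had a log2 difference of 0.66 (SE 0.32, edgeR adjusted p = 0.242), and 3 of 5 GR KO controls lay above every parental control. *Cd83* was above every parental control in 4 of 5 GR KO controls and below them in GR KO control tumor 5, with a log2 difference of 0.52 (SE 0.26, edgeR adjusted p = 0.270). For *Ccr7* the difference was -0.59 (SE 0.54, edgeR adjusted p = 0.559), and without GR KO control tumor 4 it was -1.47 (adjusted p = 0.0582, edgeR). Without the same tumor *Flt3* went from -0.70 (SE 0.84, edgeR adjusted p = 0.667) to -2.06 (adjusted p = 0.114, edgeR). *Itgae*, with GR KO control tumor 1 left out, went from -0.29 (SE 0.79, edgeR adjusted p = 0.871) to -1.36 (adjusted p = 0.404, edgeR). *Zbtb46*, at 0.37 (SE 0.30, edgeR adjusted p = 0.494) with that tumor, was at -0.11 without it (adjusted p = 0.843, edgeR), and *Xcr1* went from 0.61 (SE 0.82, edgeR adjusted p = 0.707) to 0.92 (adjusted p = 0.558, edgeR). *Clec9a* had a difference of -0.42 (SE 1.46, edgeR adjusted p = 0.903) and was at -0.11 without GR KO control tumor 1 (adjusted p = 0.978, edgeR). Between GR KO and parental tumors under GC, edgeR and DESeq2 called 0 of 9, beside 0.634% of all genes called by edgeR. Of the 9, 0 had an unadjusted p under 0.05, beside 1816 of all 15919 genes. *Zbtb46* did not overlap there, with every GC-treated GR KO tumor below every GC-treated parental tumor, which held for 2.31% of all genes, and its log2 difference was -0.58 (SE 0.30, edgeR adjusted p = 0.466). In cultures, 2 of the 10 genes were tested, *Fscn1* and *Zbtb46*. In parental cells 0 of these 2 were called by edgeR or DESeq2, beside 0.878% of all genes by edgeR, and in GR KO cells 0 of 2, beside 0% of all genes. In either genotype 0 of the 2 had an unadjusted p under 0.05, beside 1062 in parental and 237 in GR KO cells of all 12525 genes.

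*Ptprc*, which encodes CD45 of all leukocytes, had means of 45.6 ± 18.5 CPM in parental control and 45.1 ± 11.8 CPM in GC-treated parental tumors, and 45.6 ± 16.2 CPM and 40.7 ± 9.17 CPM in GR KO tumors (SD, n = 5 each). Its log2 fold changes with GC were -0.02 (SE 0.29, edgeR adjusted p = 0.989) and -0.17 (SE 0.29, edgeR adjusted p = 0.763) in the 2 genotypes. *Cd83* had 1042 ± 422 reads per 1000 reads of *Ptprc* in parental control and 454 ± 88.2 in GC-treated parental tumors (SD, n = 5 each). The GR KO ratio for *Cd83* was 1489.9 ± 817 with control treatment and 394 ± 79.4 with GC (SD, n = 5 each). The lower *Cd83* level of GC-treated tumors was thus present relative to *Ptprc* as well. *Ccr7* had 262 ± 132 reads per 1000 reads of *Ptprc* in parental control and 54.5 ± 23.5 in GC-treated parental tumors (SD, n = 5 each). For *Batf3* the ratio was 1232 ± 903 in GR KO control and 371 ± 157 in GC-treated GR KO tumors (SD, n = 5 each). Without GR KO control tumor 1, whose ratio for *Batf3* was 2801, the control means were 839.7 ± 245 for *Batf3* and 1228 ± 659 for *Cd83* (SD, n = 4 each). These ratios are descriptions, and no test was made on them.

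Other genes of dendritic cells came from lists of related roles. Over all 15919 genes tested, 2249 had an unadjusted p under 0.05 with GC in parental and 3893 in GR KO tumors. In the test of the difference between genotypes it was 3192. Of 17 tested genes of mature dendritic cells, 1 was called lower in parental tumors, *Ccl22*, a chemokine of mature dendritic cells, at 20.3 ± 6.99 CPM with control treatment and 5.86 ± 2.12 CPM with GC (SD, n = 5 each), where the log2 fold change was -1.79 (SE 0.33, edgeR adjusted p = 0.00744). Called lower in GR KO tumors were 3, *Ccl22* with -2.24 (SE 0.34, edgeR adjusted p = 0.000994), *Cd40*, the receptor for T cell help, with -0.94 (SE 0.27, edgeR adjusted p = 0.0389), and *Il12b*, a subunit of interleukin 12, with -4.20 (SE 0.99, edgeR adjusted p = 0.0154). *Il12b* was at 0 counts in 2 GC-treated GR KO tumors, and the call for *Cd40* held in 2 of 10 fits that left out a tumor. Between genotypes the GC effect differed by 3.28 (SE 1.26, edgeR adjusted p = 0.159) for *Il12b* and 0.10 (SE 0.38, edgeR adjusted p = 0.908) for *Cd40*. *Nfkb2*, a subunit of NF-κB, was the most abundant gene of this list, which summed to 1505 to 2485 counts per culture. The list's median log2 fold change was -0.39 in parental and -0.21 in GR KO tumors. Like *Cd83*, *Ccl22* was called lower in GR KO tumors in all 10 fits that left out a tumor, and in parental tumors it was called in 10 of 10 as well.

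Of 10 tested genes of antigen presentation by MHC class II, edgeR called 0 in parental tumors, with 2 at an unadjusted p under 0.05 and 0 called by DESeq2, and 5 lower in GR KO tumors, with medians of -0.37 and -1.23. The 5 were *Itgax*, which encodes CD11c, with -1.80 (SE 0.28, edgeR adjusted p = 0.00116), the regulator *Ciita* with -2.35 (SE 0.50, edgeR adjusted p = 0.00804), *H2-Ab1* with -1.26 (SE 0.21, edgeR adjusted p = 0.00210), *H2-DMb1* with -1.22 (SE 0.21, edgeR adjusted p = 0.00210) and *H2-DMb2* with -1.24 (SE 0.27, edgeR adjusted p = 0.0105). Each of these 5 was called in 10 of 10 fits that left out a tumor. In the test of the difference between genotypes edgeR called 0 of the 10, with 1.46 (SE 0.38, edgeR adjusted p = 0.0843) for *Itgax*, 2.18 (SE 0.68, edgeR adjusted p = 0.108) for *Ciita* and 0.71 (SE 0.30, edgeR adjusted p = 0.190) for *H2-Ab1*, while 4 had an unadjusted p under 0.05 and DESeq2 called *Itgax* and *Ciita*. The list summed to 16 to 64 counts per culture, and its sum in tumors was led by *H2-Ab1*. With control treatment, *Itgax* was also called higher in GR KO than parental tumors (1.12, SE 0.27, edgeR adjusted p = 0.0342), and that call held in 4 of 10 fits that left out a tumor.

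Of 10 further genes of cross-presenting dendritic cells, edgeR called 0 in parental tumors, with 3 at an unadjusted p under 0.05 and 1 called by DESeq2, *Wdfy4*. Called lower in GR KO tumors was 1, *Irf8*, the factor that acts with Batf3, from 231 ± 45.1 to 108 ± 17.0 CPM (SD, n = 5 each), and the log2 fold change was -1.09 (SE 0.21, edgeR adjusted p = 0.00439). There 4 of the 10 had an unadjusted p under 0.05, and DESeq2 called 3, *Irf8*, *Cadm1* and *Naaa*. The medians were -0.13 and -0.54, and the list is led by *Id2* and summed to 3537 to 8461 counts per culture, so cultured melanoma cells carry transcripts of it too. Of 9 tested genes of the type that primes CD4+ T cells, 0 were called by edgeR in parental tumors, with 2 at an unadjusted p under 0.05 and 2 called by DESeq2, *Irf4* below 0 (-2.23, SE 0.63, edgeR adjusted p = 0.104) and *Klf4* above 0 (1.17, SE 0.37, edgeR adjusted p = 0.147), and 1 was called lower in GR KO tumors, *Mgl2*, with -1.21 (SE 0.33, edgeR adjusted p = 0.0320), in 5 of 10 fits that left out a tumor. The differences between genotypes were 0.45 (SE 0.29, edgeR adjusted p = 0.390) for *Irf8*, 0.70 (SE 0.46, edgeR adjusted p = 0.403) for *Mgl2* and 1.87 (SE 0.52, edgeR adjusted p = 0.0902) for *Klf4*, which DESeq2 called. Genes of the type that primes CD4+ T cells had medians of -0.15 and -0.30 and summed to 2931 to 8035 counts per culture, led by *Cx3cr1* in tumors. Of these genes, 3 had an unadjusted p under 0.05 in GR KO tumors, where DESeq2 called *Cx3cr1* as well as *Mgl2*. Of 9 tested genes of plasmacytoid dendritic cells, led by *Tcf4*, *Bst2* was called lower in parental tumors, with -1.48 (SE 0.29, edgeR adjusted p = 0.0109), and edgeR called 0 in GR KO tumors, with 2 at an unadjusted p under 0.05 and 2 called by DESeq2. The medians of this list were -0.82 and 0.10, and it summed to 11920 to 20041 counts per culture. *Tlr3* in GR KO against parental control tumors (1.02, SE 0.27, edgeR adjusted p = 0.0485), *Cadm1* under GC (-1.33, SE 0.27, edgeR adjusted p = 0.0201) and *Bst2* under GC (1.39, SE 0.29, edgeR adjusted p = 0.0201) were the other calls in tumors for these lists, and they held in 1, 4 and 4 of 10 fits that left out a tumor. Between genotypes the GC effect on *Bst2* differed by -0.72 (SE 0.40, edgeR adjusted p = 0.316). In parental cells, where 2 GC and 3 DMSO cultures were compared, GC gave -1.25 (SE 0.20, edgeR adjusted p = 0.0135) for *Id2* and 1.52 (SE 0.30, edgeR adjusted p = 0.0354) for *Cd24a*, another gene of the cross-presenting list. *Id2* was thus called lower and *Cd24a* higher without host cells. The values in GR KO cells were 0.25 (SE 0.17, edgeR adjusted p = 0.976) and -0.47 (SE 0.25, edgeR adjusted p = 0.976), and a difference between the genotypes of culture was not tested.

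Among 8 ligands and partners of the marker genes, 5 were tested, of which edgeR called 0 in parental tumors, with 1 at an unadjusted p under 0.05 and 0 called by DESeq2. Of the 5, GR KO tumors had 1 called lower, *Itgb7*, the partner of *Itgae*, with -1.14 (SE 0.28, edgeR adjusted p = 0.0196), called in 8 of 10 fits that left out a tumor, and the difference between genotypes was 0.43 (SE 0.39, edgeR adjusted p = 0.557). *Itgb7* was also called lower with GC in cultured parental cells, with -0.99 (SE 0.18, edgeR adjusted p = 0.0244), against -0.09 (SE 0.15, edgeR adjusted p = 0.976) in GR KO cells, a difference that was not tested. The list summed to 3652 to 8869 counts per culture, so reads of *Itgb7* and its list cannot be assigned to leukocytes. *Cdh1*, which encodes the E-cadherin that Itgae binds, was the most abundant of the list. The medians of the 5 were -0.54 and -0.83. In GR KO tumors 3 of the 5 had an unadjusted p under 0.05, and DESeq2 called *Csf1* as well as *Itgb7*. Of the 2 genes of Langerhans cells, led by *Epcam*, edgeR called 0 in parental tumors, with 0 at an unadjusted p under 0.05 and 0 called by DESeq2, and *Cd207* was called lower in GR KO tumors, where 4 of 5 GC-treated tumors had 0 counts and all 5 were at or under the floor, so that no fold change is given. This call held in 5 of 10 fits that left out a tumor, and DESeq2 called 0 of these 2.

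Markers of other cells were also called in the same comparisons, and their part in the results for the dendritic cell marker genes was not tested. Of 7 T cell genes, led by *Cd3d*, edgeR called 0 in parental tumors, with 2 at an unadjusted p under 0.05 and 0 called by DESeq2, and *Cd3d* (-1.26, SE 0.33, edgeR adjusted p = 0.0264) and *Foxp3* (-2.22, SE 0.48, edgeR adjusted p = 0.00980) lower in GR KO tumors. The differences between genotypes were 0.86 (SE 0.46, edgeR adjusted p = 0.299) for *Cd3d* and 1.04 (SE 0.66, edgeR adjusted p = 0.378) for *Foxp3*, and the calls held in 5 and 10 of 10 fits that left out a tumor. DESeq2 also called *Cd3e* in GR KO tumors, where 4 of the 7 had an unadjusted p under 0.05. The summed level of the T cell list was 113 ± 35.0 CPM in GR KO control and 55.1 ± 18.9 CPM in GC-treated GR KO tumors (SD, n = 5 each), and 89.3 ± 29.1 and 71.3 ± 17.9 CPM in parental tumors (SD, n = 5 each). Of 5 endothelial genes, led by *Kdr*, edgeR called 0 in parental tumors, with 3 at an unadjusted p under 0.05 and *Kdr* called by DESeq2, and *Kdr* lower in GR KO tumors (-1.32, SE 0.26, edgeR adjusted p = 0.00567). Between genotypes the GC effect on *Kdr* differed by 0.30 (SE 0.37, edgeR adjusted p = 0.675), and *Kdr* was also called higher in GR KO than parental controls (0.98, SE 0.26, edgeR adjusted p = 0.0472), in 1 of 10 fits that left out a tumor. The endothelial sum was 57.3 ± 11.2 and 30.2 ± 7.53 CPM in parental tumors and 93.0 ± 9.93 and 48.3 ± 4.72 CPM in GR KO tumors, control and GC (SD, n = 5 each), and *Zbtb46* and *Fscn1* are also known from these cells. Of 10 macrophage genes, led by *C1qa*, 1 was called higher in each genotype, *Mertk* in parental (1.13, SE 0.27, edgeR adjusted p = 0.0457) and *Mrc1* in GR KO tumors (1.20, SE 0.32, edgeR adjusted p = 0.0267), in 3 and 4 of 10 fits that left out a tumor. The differences between genotypes were 1.05 (SE 0.38, edgeR adjusted p = 0.141) and -0.63 (SE 0.44, edgeR adjusted p = 0.432). Of 5 neutrophil genes, led by *S100a8*, *S100a9* and *S100a8* were called lower in parental tumors, with -5.03 (SE 0.98, edgeR adjusted p = 0.0109) and -3.96 (SE 0.94, edgeR adjusted p = 0.0437), while edgeR and DESeq2 called 0 in GR KO tumors, with 2 at an unadjusted p under 0.05. The calls for *S100a9* and *S100a8* held in 9 and 4 of 10 fits that left out a tumor, with values from -5.40 to -2.98 and from -4.59 to -2.05. Both were nearest 0 without parental control tumor 5, whose neutrophil genes summed to 1276.5 CPM against 22.7 to 244 CPM in the other parental controls, and the differences between genotypes were -2.85 (SE 1.20, edgeR adjusted p = 0.192) and -2.06 (SE 1.19, edgeR adjusted p = 0.331). Of 3 keratinocyte genes, led by *Krt14*, edgeR called 0 in parental tumors, with 1 at an unadjusted p under 0.05 and 0 called by DESeq2, and *Krt14* lower (-1.42, SE 0.39, edgeR adjusted p = 0.0302) and *Krt10* higher (2.13, SE 0.49, edgeR adjusted p = 0.0136) in GR KO tumors, in 3 and 9 of 10 fits that left out a tumor, with differences between genotypes of 0.92 (SE 0.54, edgeR adjusted p = 0.334) and -1.55 (SE 0.67, edgeR adjusted p = 0.198). Of 3 monocyte genes, led by *Ly6c2*, edgeR called 0 in both genotypes, with 1 at an unadjusted p under 0.05 in each, and DESeq2 called 0 in parental tumors and *Ccr2* in GR KO tumors. Of 4 B cell genes, 1 was tested, *Cd79b*, and edgeR called 0 in both genotypes, with 0 and 1 at an unadjusted p under 0.05, and DESeq2 called *Cd79b* in GR KO tumors. Of 5 tested melanoma genes, led by *Mitf*, edgeR and DESeq2 called 0 in both genotypes, with 1 and 0 at an unadjusted p under 0.05.

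In the order parental control, parental GC, GR KO control and GR KO GC, the macrophage list summed to 4982 ± 692, 6777 ± 2218, 7574 ± 1391 and 5829 ± 1376 CPM (SD, n = 5 each). Monocyte genes summed to 208 ± 100.4, 123 ± 56.3, 276 ± 103 and 192 ± 76.4 CPM, neutrophil genes to 329 ± 537, 19.4 ± 11.9, 536 ± 357 and 143 ± 73.4 CPM and B cell genes to 7.31 ± 1.96, 6.96 ± 3.28, 8.49 ± 2.37 and 3.92 ± 2.17 CPM (SD, n = 5 each). Keratinocyte genes summed to 1217 ± 873, 859.7 ± 123, 2453 ± 949 and 1026 ± 299.6 CPM and melanoma genes to 42.6 ± 10.1, 46.0 ± 6.48, 32.8 ± 5.83 and 38.8 ± 9.95 CPM (SD, n = 5 each). With 0 counts in all 20 tumors were *Ccl21a* and *Tyr*. None of these sums was tested against *Cd83*, *Batf3* or the other marker genes.

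Across the 20 tumors, after removal of the group means, the marker genes varied with different partners. Over 13364 genes of at least 1 CPM, the genes most like *Batf3* were *Tmem176a* (Pearson r = 0.955 over 20 tumors), *Cd3e* (0.952), a chain of the T cell receptor complex, and *Cd52* (0.866), and *Cd83* was most like *Hcls1* (0.840), a leukocyte adaptor. *Ccr7* was most like *Nr4a3* (0.885), *Fgl2* (0.864) and *Batf* (0.864), and *Zbtb46* was most like *Prkce* (0.841, or 0.692 without GR KO control tumor 1) and *H2-DMb2* (0.838, or 0.791). The nearest genes of *Fscn1*, *Flt3*, *Itgae* and *Xcr1* were *Hdac1* (0.938), *Prr3* (0.918), *Clec4e* (0.933) and *Serpina3i* (0.872), and *Clec9a* was most like *Fam175b* (0.865, over 13365 genes). Of the 36 pairs among the 9 tested marker genes, 26 had a positive correlation, with a median of 0.19, or 0.28 without GR KO control tumor 1 and 0.11 without GR KO control tumor 4. The pairs went in both directions: *Ccr7* and *Flt3* had 0.73 (0.57 without tumor 4), *Fscn1* and *Itgae* 0.55, *Cd83* and *Ccr7* 0.52 and *Batf3* and *Fscn1* -0.52. The correlations of *Zbtb46* with *Itgae* (0.65) and with *Xcr1* (-0.58) rest on GR KO control tumor 1, without which they were 0.34 and -0.12. Without the same tumor *Clec9a* and *Itgae* had 0.71 in place of 0.39. These correlations share library depth and cell content, and they come with no test.

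The promoter table from RefSeq (GRCm38.p6) holds an entry for 7 of the 10 genes, and none for *Cd83*, *Ccr7* and *Itgae*. The 250 bases before each start were searched on both strands for κB (GGGNNTTCC), AP-1 (TGANTCA), the glucocorticoid receptor hexamer (AGAACA), PU.1 (GAGGAAGT) and an interferon element (TTTCNNTTT), which 4.88%, 6.87%, 16.2%, 2.44% and 9.52% of 27025 such windows hold. The listed windows are not all upstream of annotated genes. That of *Batf3* lies inside an annotated gene, with 163 of its 250 bases in annotated exons. All 250 bases of the *Clec9a* window lie in annotated exons. Of the 7 windows, 1 held any of these letters, that of *Zbtb46*, which is shown because *Zbtb46* is 1 of the 3 genes called lower in GR KO tumors. It lies at chr2:181424389-181424638 on the minus strand, inside the annotated *Zbtb46* gene, with 0 of its bases in annotated exons. The annotated gene starts at 181459426 on this strand, so the window does not precede the start of every *Zbtb46* transcript. Whether a transcript starts directly after the window was not tested. Capitals mark the AP-1 letters 61 bases and the glucocorticoid receptor hexamer 22 bases before the listed start. The window of *Xcr1*, chr9:123862030-123862279 on the minus strand, the most selective mark, holds none of the 5 motifs. A match is a description and no match says only that these letters are absent from the window.
*Zbtb46*: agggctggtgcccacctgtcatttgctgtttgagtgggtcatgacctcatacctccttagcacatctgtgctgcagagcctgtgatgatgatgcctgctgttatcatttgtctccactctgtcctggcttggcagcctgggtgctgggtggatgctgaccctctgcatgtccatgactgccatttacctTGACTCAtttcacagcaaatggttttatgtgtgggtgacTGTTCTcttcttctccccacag
*Xcr1*: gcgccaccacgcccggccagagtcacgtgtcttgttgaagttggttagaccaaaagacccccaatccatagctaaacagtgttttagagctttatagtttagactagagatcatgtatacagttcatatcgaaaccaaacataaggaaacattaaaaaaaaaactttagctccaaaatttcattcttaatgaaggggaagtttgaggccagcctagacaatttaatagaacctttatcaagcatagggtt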

How the data were processed

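RNA of 20 tumors and 11 cultures was measured by QuantSeq 3′ sequencing. The authors checked reads with FastQC 0.11.7 and MultiQC 1.4, trimmed them with Trim Galore 0.6.5, aligned them to GRCm38 with STAR 2.6.1d and used featureCounts on genes of Ensembl release 75; they deposited the raw integer read counts, not normalized, for 39179 genes. The version of featureCounts is not stated, and its strand setting is covered only by a general remark that defaults were used where nothing else is given. Genes with at least 0.5 CPM in 3 or more samples were kept per experiment, 15919 in tumors and 12525 in cultures, scaled with TMM and fitted with edgeR 4.0.16 in R 4.3.3, tumors and cultures apart. Standard errors come from the F statistic. *Cd209a*, which missed this filter, was compared by exact permutation tests on log2(CPM + 1). Reads were PCR-amplified without UMIs being stated, so floors cover counting error only.

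The members and the lists were chosen with earlier results of these data known, so their counts are descriptions. All 10 members are reported, and of each list the genes called and the most abundant gene. Replicates differed by more than sampling noise, with a lowest mean chi-square per gene between 28.2 and 68.8 in the tumor groups and between 8.26 and 30.9 in the culture groups. Deviations of same-numbered tumors had a mean correlation of 0.0583 over 30 pairs (from -0.543 to 0.415), so no replicate block was used in the main results.

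The alternatives were no minimum fold change or 2, DESeq2 1.42.0, DESeq2 size factors within edgeR, no filter on low counts, 10 or more counts in all samples, a replicate block, a covariate for the genes detected at equal depth, the compared groups alone, leaving out each sample, and for *Cd209a* a pseudocount of 0.1 in place of 1. The alternatives for the listed genes, the counts and medians without *Clec9a*, and the correlations and ratios without GR KO control tumor 1 or 4, were chosen after seeing the data. The pipeline was tested on simulated data. The first pass mark, on the share of all changed genes recovered, was not met. It was replaced, after that result was seen, by marks on abundant genes, bias and false calls, which were met. In the simulation abundant changed genes were recovered, while most at the low level of *Xcr1*, *Flt3* and *Itgae* were missed by edgeR, and DESeq2 made more false calls than edgeR in both experiments.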

Additional observations from a re-analysis of the deposited data

Results flagged for a closer look

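Values far from the rest of their group stood out in 4 of 40 groups of 5 tumors. The rule used flags about 1 in 20 groups where values are independent and normally distributed. Here it was applied to CPM without logs, some genes were near the floor, and the 40 groups share the same 20 tumors. That rate is therefore no test of these flags. *Xcr1* in GR KO control tumor 1 had 0.0733 CPM, and the nearest tumor of its group had 3.44 CPM. *Ccr7* in GR KO control tumor 4 had 18.8 CPM, and the nearest had 6.29 CPM. *Flt3* in GR KO control tumor 4 had 6.10 CPM, and the nearest had 1.43 CPM. *Cd209a* in GC-treated parental tumor 2 had 1.57 CPM, and the nearest had 0.204 CPM. Of the 4, 2 were in GR KO control tumor 4, and what set these tumors apart was not tested.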

How the results depend on the processing

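Of the fits that left out a sample, the following tallies include only those with the lowest and highest fold change of each gene in each comparison. Of 455 values for the marker genes under the alternatives, 429 kept their direction and their side of the threshold. Another 13 kept the direction but changed side. For the listed genes, 44 of 258 lost the call. Calls for listed genes were lost more often where a tumor was left out. Those for *Tlr3* and *Kdr* between control tumors held in 1 of 10 such fits, while those for *Ccl22* with GC held in 10 of 10. In parental tumors the count of marker genes called with GC moved from 0, beside 124 of all genes called, to 2 (*Cd83* and *Ccr7*) with DESeq2, the covariate and the 2 groups alone, beside 378, 528 and 122, and lay between 0 and 1 with each tumor left out. The GR KO count was 3, beside 1022, and 2 with a minimum fold change of 2, no filter, the replicate block, the covariate or the groups alone, beside 583, 892, 994, 218 and 391, and between 2 and 3 with each tumor left out. With the replicate block, *Zbtb46* in GR KO tumors had a log2 fold change of -0.86 (adjusted p = 0.0589, edgeR), *Cd83* -1.91 and *Batf3* -1.62; without a filter its adjusted p was 0.0513, with the covariate 0.237 and with the groups alone 0.133 (all edgeR). The cause of these changes was not tested.

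Signs of estimates that missed the threshold turned as follows. With the covariate, *Flt3* with GC in GR KO tumors became -0.84, and in GR KO against parental control tumors *Clec9a* became 1.52, *Ccr7* 0.021, *Fscn1* 0.053 and *Flt3* 0.16. With a tumor left out, *Zbtb46* with GC in parental tumors ranged from -0.10 to 0.044, and in GR KO tumors *Flt3* ranged from -0.14 to 1.67 and *Itgae* from -1.04 to 0.34. The difference of the GC effects ranged from -0.41 to 0.36 for *Xcr1* and from -1.18 to 0.20 for *Itgae*. Between genotypes, *Zbtb46* ranged from -0.11 to 0.56 and *Itgae* from -1.36 to 0.025 in control tumors, and *Itgae* from -0.40 to 0.37 under GC. *Clec9a* missed the filter in some of these fits and with at least 10 counts per sample, and so has no value there. Genes near the floor, *Clec9a* and *Cd209a* above all, are limited by depth, and with a pseudocount of 0.1 the *Cd209a* differences with GC were 0.98 and -0.29.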
